A study of Glycine max and Glycine soja with 189 samples.

Results

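The comparison described here sets soybean plants moved to short days (LD-SD) against plants kept in long days (LD), all taken at the afternoon time point T3, 14:30. The series covers 9 combinations of photoperiod and time point with 21 RNA sequencing samples each, and this comparison uses 2 of them, 21 samples in LD-SD and 21 in LD, with 3 samples of each photoperiod from each of 7 genotypes. Plants in LD-SD grew under LD for 21 days and then under 10 h of light a day for 5 days. Plants in LD had 16 h of light throughout. The sample records give an age of 26 days for both, whereas by the study's methods LD plants were taken after 3 weeks and LD-SD plants 5 days later, so a difference in age cannot be told apart from the shift if the methods hold. The lights came on at 6:45 in both, so all plants had been in light for 7.75 h at T3, and the next dark period was 2.25 h away in LD-SD and 8.25 h away in LD. Plants grown in short days only (SD, 21 samples at T3) are used at the end for reference. The tissue is uncertain, since the sample records name the first trifoliate leaf and the study's methods the entire shoot above the cotyledon. No marker of a tissue could be looked up by name, and fewer cells of a type and less RNA per cell cannot be told apart in such samples.

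Among the 7 genotypes, Clark and Williams 82 are cultivars and Glycine soja is wild soybean. L65-3366, L66-432, L74-441 and L92-1195 are near isogenic lines (NILs), each of them a single line in the Clark background. Clark carries e1, E2, E3, E4, e5 and E7. L65-3366 carries E1 in place of e1, L66-432 carries e2, L74-441 carries e3, and L92-1195 carries e3 together with E5. The alleles of Williams 82 and Glycine soja are not given in full in the sources used here.

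Soybean flowers sooner when days are short. Light is read by phytochromes, among them those encoded by the maturity genes E3 (GmPHYA3) and E4 (GmPHYA2). The time of day is kept by the circadian clock, to which GIGANTEA (E2, GmGIa) belongs. E1 encodes a legume protein with a B3-like domain that represses the florigen genes GmFT2a and GmFT5a in long days. Florigens are small proteins made in leaves that move to the shoot apex and start flowering there. CONSTANS in Arabidopsis is a zinc finger (B-box) protein with a CCT domain that activates the florigen gene of that species. The GmCOLs are its soybean homologs, which fall into Clades I, II and III and come as homeologous pairs named a and b.

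The 21 samples in LD-SD held 6.35 M to 15.8 M mapped reads (median 10.5 M) and the 21 in LD held 7.30 M to 14.9 M (median 9.84 M), as recovered from the deposited values. The values are RPKM of each transcript, that is, its reads scaled by its length and by the depth of the library. On the first principal component, which held 39.2% of the variance, all LD-SD samples lay on one side and all LD samples on the other. Marker transcripts that set Williams 82, L74-441 and Glycine soja apart in SD went against the label in 1 of the 42 samples, replicate B of L74-441 in LD-SD. Clark, L65-3366, L66-432 and L92-1195 could not be told apart by such markers. GmGIa was lower in the e2 line L66-432 (51.1 ± 2.58 RPKM in LD-SD and 53.4 ± 4.23 RPKM in LD, SD, n = 3 each) than in the other genotypes, whose means lay between 94.5 and 118 RPKM in LD-SD and between 73.0 and 104 RPKM in LD.

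A large part of the transcriptome differed between LD-SD and LD at T3. Of 60655 transcripts whose mean reached 0.1 RPKM, 31662 differed on average over the 7 genotypes (52.2% of those tested), of which 12610 rose in LD-SD (20.8%) and 19052 fell (31.4%). These calls are adjusted p values below 0.05 from limma on log2(RPKM + 1), with Benjamini-Hochberg adjustment over all transcripts. Most differences were small. The median log2 difference was 0.38 among the transcripts that rose and -0.33 among those that fell. A difference of at least 1 on the log2 scale, which is a doubling for well expressed transcripts, was found for 1866 that rose (3.08%) and 1103 that fell (1.82%). At this size more transcripts rose than fell, whereas among all calls more fell than rose. With a median-of-ratios factor for each library, 15213 rose and 16204 fell. The difference exceeded 4 on the log2 scale for 14 transcripts that rose and 5 that fell. Over all transcripts tested the median difference was -0.04, and 90% of them lay between -0.66 and 0.71. Samples with the same replicate letter deviated together across genotypes within a photoperiod, more so in LD, so that p values averaged over genotypes may be too small. With 3 letter means against 3, 8026 transcripts rose and 11063 fell. Without the library that went against its label, 12510 rose and 18830 fell.

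The responses were then counted in each genotype, with 3 samples in LD-SD against 3 in LD. L65-3366 had 4358 transcripts that rose and 5455 that fell in LD-SD, which was 7.18% and 8.99% of those tested. Glycine soja had 4794 higher and 4232 lower (7.90% and 6.98%). Clark had 3385 higher and 3764 lower (5.58% and 6.21%), Williams 82 3515 and 4012 (5.80% and 6.61%), and L66-432 3777 and 3717 (6.23% and 6.13%). L92-1195 had 3667 higher and 3171 lower (6.05% and 5.23%). L74-441 had 2835 higher, the fewest of the 7, and 3228 lower (4.67% and 5.32%), and without its library B 2233 and 2154. Every genotype thus responded with at least 2835 transcripts in each direction, and whether the numbers differ between genotypes was not tested. The balance of both directions moved with the scaling. With a median-of-ratios factor for each library, the calls were 4327 higher and 2822 lower in Clark, 5498 and 4460 in L65-3366, and 3857 and 2552 in L74-441.

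Single libraries weighed on these counts. The number lower in Clark was 2402 without replicate B in LD, 2059 without replicate C in LD and 2361 without replicate B in LD-SD, against 3764 with all libraries. In Williams 82 it was 2641 without replicate C in LD and 2383 without replicate C in LD-SD. In L65-3366 it was 3442 without replicate C in LD, in L66-432 2116 without replicate B in LD-SD and in L74-441 1752 without replicate A in LD-SD. In L92-1195 it was 2002 without replicate B in LD and 1585 without replicate B in LD-SD. In Glycine soja it was 2517 without replicate B in LD and 2698 without replicate B in LD-SD, and the number higher was 3162 without replicate C in LD. Every other library changed a count by less than 1.5 times when it was left out.

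Many transcripts were called in the same direction in all genotypes. 1379 transcripts from 991 loci were higher in LD-SD in all 7 genotypes (2.27% of those tested), and 713 transcripts from 549 loci were lower in all 7 (1.18%). Among transcripts called higher in at least 1 genotype (8522, or 14.0% of those tested), 40.9% were called in 1 genotype only and 16.2% in all 7. Among those called lower in at least 1 genotype (10744, or 17.7%), 45.5% were called in 1 only and 6.64% in all 7. The numbers thus fell from 1 genotype to 4 and then rose again at 7 for the transcripts higher in LD-SD (565 at 4, 565 at 5, 578 at 6 and 1379 at 7). For those lower in LD-SD the numbers were 823, 687, 645 and 713. Opposite calls were rare, since 34 transcripts were called higher in one genotype and lower in another. Of the calls made in 1 genotype only, Glycine soja had 1552 of those higher and 1392 of those lower, and Clark had 184 and 506. A call in one genotype and not in another does not show that the genotypes differ. Nor are the calls of the 7 genotypes independent, since samples with the same replicate letter deviated together across genotypes. This may raise the numbers called in all 7, and the check by letter means was made for the averages only.

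**Figure D1:**
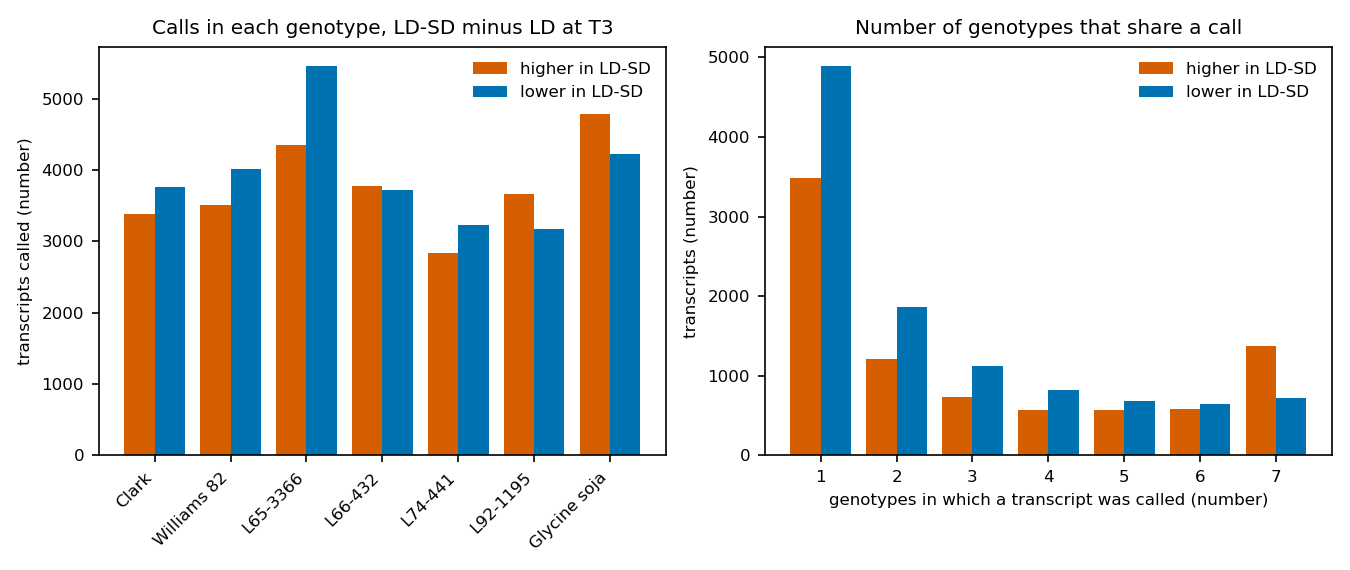
Transcripts called at T3 in LD-SD minus LD (y axis, number of transcripts), on the left for each genotype and on the right by the number of genotypes in which a transcript was called. The bar for transcripts higher in all 7 genotypes stands at 1379, above those for 4, 5 and 6 genotypes, while the bar for lower in all 7 stands at 713.

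The transcripts that rose in all 7 genotypes had a median log2 difference of 1.42, from 0.45 to 6.18, and a median level of 11.9 RPKM in LD-SD and 3.14 RPKM in LD. For those that fell in all 7 the median difference was -1.06, from -4.35 to -0.35, with a median level of 5.33 RPKM in LD-SD and 12.9 RPKM in LD. Without the library that went against its label, 1251 rose and 624 fell in all 7. Leaving out 1 replicate letter at a time in all groups gave 631 to 880 that rose and 159 to 376 that fell, with 2 samples in each group. For 1060 transcripts (1.75% of those tested) all 21 samples in LD-SD lay above all 21 in LD, and for 502 (0.828%) all lay below.

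Well expressed transcripts were called more often. Of 618 transcripts that averaged 100 RPKM or more, 5.99% rose and 3.24% fell in all 7 genotypes. Of 15434 transcripts with a mean between 0.1 and 1 RPKM, 0.246% rose and 0.0454% fell in all 7. On the log2(RPKM + 1) scale the change of such low transcripts is understated. The responding transcripts were spread over all 20 chromosomes. On each chromosome, 16.4% to 22.1% of the transcripts tested were higher on average and 28.6% to 33.4% were lower. Chromosome 20 had the smallest share of transcripts higher and the largest share lower. Among 10800 loci with 2 or more transcripts tested, 1 had a transcript that rose and another that fell on average. Of 283 such loci with a transcript higher in all 7 genotypes, every transcript tested was higher in all 7 in 210. Of 178 with a transcript lower in all 7, this held in 89. Transcripts of a locus share exons and the rule for reads that fit several of them is not stated, so they are not independent.

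Among transcripts called in all 7 genotypes, the largest rise on the log2(RPKM + 1) scale was that of Glyma10g38910.1 on chromosome 10. It had 195, 627 and 1052 RPKM (lowest, median and highest of 21 samples) in LD-SD, against 3.07, 6.51 and 16.5 RPKM in LD. The ranges did not overlap, and the lowest sample in LD-SD, replicate B of Glycine soja, stood far above the highest in LD, replicate B of Williams 82. The averaged log2 difference was 6.18 ± 0.14 (SE, adjusted p = 7.15e-26), and the mean was 82.5-fold higher in LD-SD. Glyma06g14880.1 on chromosome 6 had 34.3, 71.8 and 102 RPKM in LD-SD, against 0.238, 0.524 and 1.48 RPKM in LD, which was a median of 5 reads per sample. Its log2 difference was 5.44 ± 0.12 (SE, adjusted p = 1.38e-26), and it lay between 5.12 and 5.87 in the single genotypes. Its mean was 122-fold higher in LD-SD, above that of Glyma10g38910.1, so their order depends on the pseudocount.

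The largest fall on this scale was that of Glyma19g27530.1 on chromosome 19, with 13.3, 22.5 and 72.8 RPKM in LD-SD, against 232, 596 and 1089 RPKM in LD. Its log2 difference was -4.35 ± 0.17 (SE, adjusted p = 5.30e-20). The 3 highest samples in LD-SD were the 3 of L74-441 (54.8, 72.8 and 59.9 RPKM), where the difference was -2.94, while it was -5.18 in L65-3366. Glyma11g35270.1 on chromosome 11 had 0.577, 1.85 and 2.82 RPKM in LD-SD, against 25.7, 44.8 and 79.2 RPKM in LD, with a log2 difference of -4.10 ± 0.10 (SE, adjusted p = 2.94e-25). By the ratio of the means it was 26.4-fold lower in LD-SD and Glyma19g27530.1 20.1-fold lower. The 4 transcripts were called in all 7 genotypes, with no overlap between the 21 samples of either photoperiod. They were picked by the size of these differences, so the differences describe them and are no independent evidence.

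**Figure D2:**
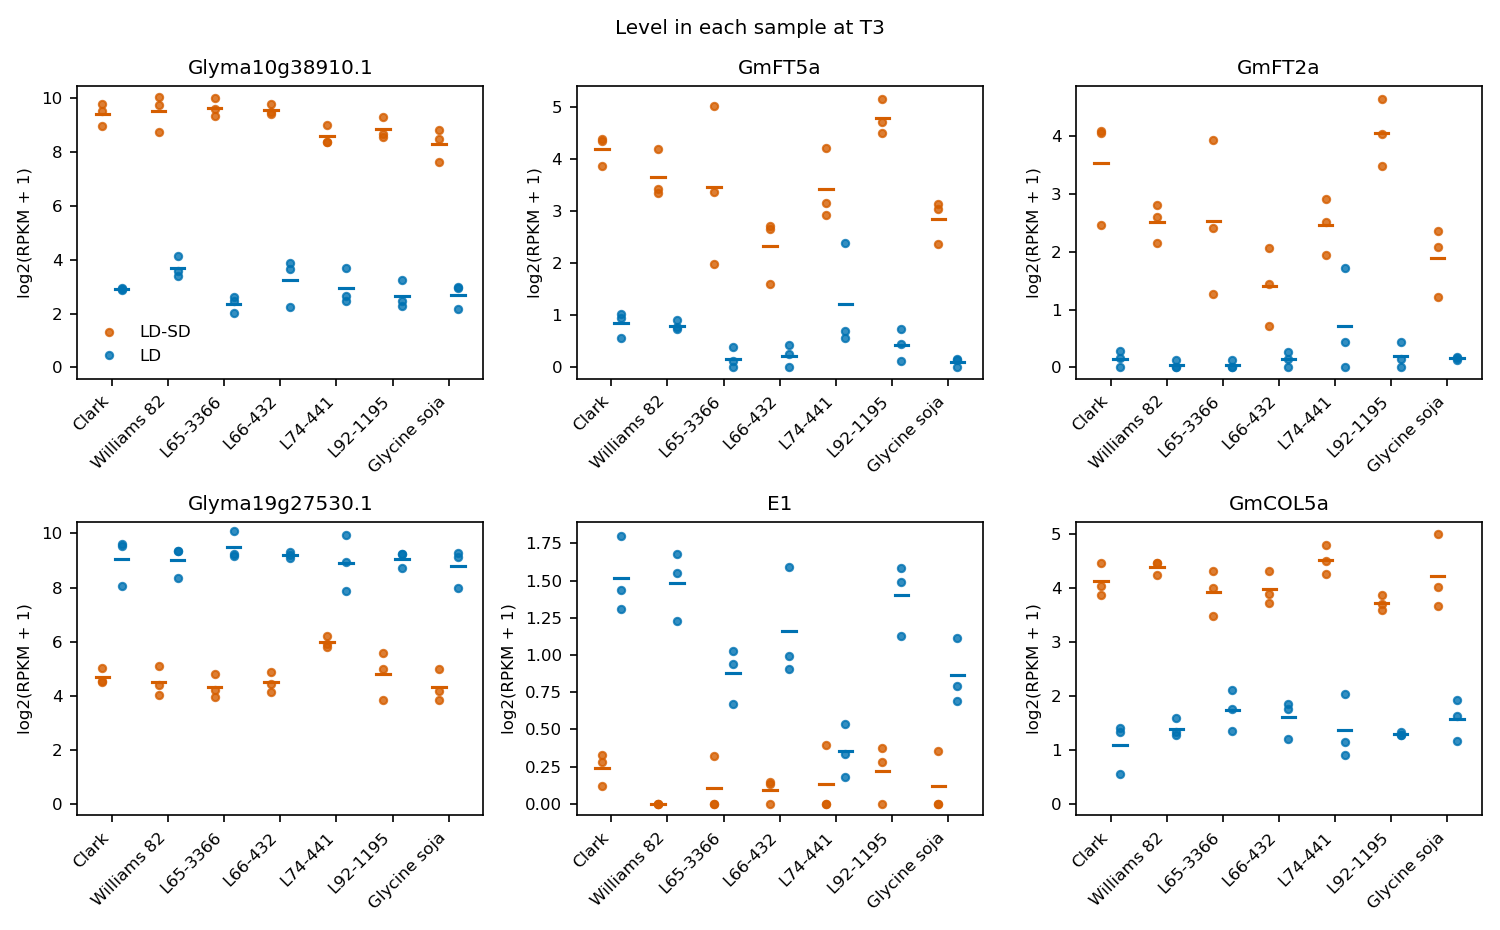
Level of 6 transcripts at T3 on the log2(RPKM + 1) scale (y axis) in each of the 42 samples, by genotype (x axis), with LD-SD left of LD; each point is a sample and each bar the mean of 3. The samples in LD-SD lie above those in LD throughout for Glyma10g38910.1 and GmCOL5a and below them throughout for Glyma19g27530.1, while those of GmFT5a, GmFT2a and E1 overlap in a few.

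Both florigen genes were higher after 5 short days, and E1 was lower. GmFT5a had 2.02, 9.26 and 34.2 RPKM (lowest, median and highest) in LD-SD, against 0, 0.361 and 4.26 RPKM in LD. Its log2 difference was 2.98 ± 0.18 (SE, adjusted p = 1.33e-15), the 54th largest rise of the 60655 transcripts, and it was called in all 7 genotypes. GmFT2a had 0.652, 4.54 and 23.8 RPKM in LD-SD, against 0, 0.0956 and 2.30 RPKM in LD. Its difference was 2.42 ± 0.17 (SE, adjusted p = 2.28e-13), and it was called in 6 genotypes. Both genes thus had clear levels in LD-SD and lay near the floor of detection in LD. In LD, GmFT2a had a median of 1 read per sample and none in 8 of 21 samples, and GmFT5a a median of 4 reads and none in 3. A count of 3 reads, taken as the floor, equals 0.302 RPKM for GmFT2a and 0.262 RPKM for GmFT5a.

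The level reached by the florigens after the shift varied among genotypes and among replicates. In LD-SD, GmFT5a averaged 27.0 ± 6.49 RPKM in L92-1195, 17.6 ± 3.51 in Clark, 14.5 ± 14.9 in L65-3366, 12 ± 4.5 in Williams 82, 10.7 ± 6.01 in L74-441, 6.40 ± 1.96 in Glycine soja and 4.29 ± 1.97 in L66-432 (SD, n = 3 each). GmFT2a gave the same order, with 16.5 ± 6.86 RPKM in L92-1195, 12.1 ± 6.51 in Clark, 6.66 ± 6.73 in L65-3366, 4.83 ± 1.29 in Williams 82, 4.68 ± 1.82 in L74-441, 2.89 ± 1.43 in Glycine soja and 1.85 ± 1.27 in L66-432. Most neighbours in this order differed by less than their spread. The 2 genes come from the same samples, and the 3 samples of L65-3366 spread widely in both, with 2.96, 31.3 and 9.26 RPKM of GmFT5a and 1.42, 14.3 and 4.31 RPKM of GmFT2a in replicates A, B and C. GmFT2a in L66-432 did not pass the threshold (log2 difference 1.27, adjusted p = 0.0687). In L74-441 the difference of GmFT2a was 1.73 (adjusted p = 0.0130), and without library B in LD-SD it was 1.51 (adjusted p = 0.0736), so that the call rests on that library. The test of a difference in response among genotypes, the interaction term, gave adjusted p = 0.431 for GmFT2a and 0.867 for GmFT5a.

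E1 had 0, 0 and 0.318 RPKM in LD-SD, against 0.136, 1.17 and 2.48 RPKM in LD. No sample in LD-SD held more than 3 reads and 11 of 21 held none, whereas samples in LD held 1 to 21 reads (median 9). All values in LD-SD were thus at or under the floor of 0.337 RPKM. The log2 difference was -0.96 ± 0.06 (SE, adjusted p = 2.98e-14), which the low level in LD-SD and the pseudocount make smaller than the change in level. It was called in 6 genotypes, from -1.49 in Williams 82 to -0.75 in Glycine soja, but not in L74-441 (-0.22, adjusted p = 0.474). In L74-441, E1 was low in LD as well, with 0.264, 0.136 and 0.452 RPKM in replicates A, B and C, and 0, 0 and 0.318 RPKM in LD-SD. Replicate B of L74-441 in LD had the least E1 of all LD samples and the most GmFT2a (2.30 RPKM) and GmFT5a (4.26 RPKM). This is 1 library with E1 under the floor, and a relation between E1 and the florigens was not tested. The interaction with genotype gave adjusted p = 0.126 for E1.

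The other maturity genes changed little at T3. GmGIa, the soybean GIGANTEA gene of the E2 locus, had 48.8, 107 and 141 RPKM in LD-SD, against 48.7, 86.8 and 112 RPKM in LD. Its difference of 0.26 ± 0.06 (SE, adjusted p = 0.000237) was called in L74-441 (0.62) and L92-1195 (0.51). The phytochrome A gene GmPHYA3 had 1.76, 3.16 and 4.5 RPKM in LD-SD, against 1.68, 4.4 and 6.18 RPKM in LD, and GmPHYA2 had 12.1, 18.4 and 24.2 RPKM in LD-SD, against 6.72, 15 and 18.3 RPKM in LD. The samples overlapped widely in both. On average GmPHYA3 fell by 0.28 and GmPHYA2 rose by 0.36 on the log2 scale (adjusted p = 0.00568 and 0.00204), neither was called in a single genotype, and with 3 letter means against 3 neither passed (adjusted p = 0.151 and 0.159).

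Of the 26 GmCOLs, 24 passed the filter on low values, 9 of them rose in LD-SD and 14 fell, on average over genotypes (against 20.8% and 31.4% of all transcripts). The median log2 difference of the 24 was -0.65, against -0.04 over all transcripts, and 5 rose and 9 fell in all 7 genotypes (against 2.27% and 1.18% of all transcripts). For 10 of the 24 the 21 samples in LD-SD did not overlap with the 21 in LD, while over all transcripts 1.75% lay entirely above and 0.828% entirely below. GmCOL10a and GmCOL10b were at 0 reads in most samples of both photoperiods, with at most 2 reads in any, and were not tested. The directions followed the clades in part. In Clade I, 6 of 8 genes rose (median difference 0.87), in Clade II 3 of 6 rose and 3 fell (0.19), and in Clade III none of 10 rose, 9 fell and 1 was not called (-1.29). How reads that fit both genes of a pair were assigned is not stated, so their reads may be shared in part.

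In Clade I, which holds the closest homologs of CONSTANS, the pair GmCOL4a and GmCOL4b had the largest differences on the log2(RPKM + 1) scale. GmCOL4a had 80.8, 144 and 203 RPKM in LD-SD, against 15.6, 32.0 and 56.7 RPKM in LD. GmCOL4b had 58.5, 97.6 and 140 RPKM in LD-SD, against 10.9, 20.1 and 36.2 RPKM in LD. In neither gene did the photoperiods overlap, and the log2 differences were 2.05 ± 0.11 and 2.22 ± 0.10 (SE, adjusted p = 1.60e-16 and 1.37e-18). GmCOL3a had 22.5, 30.7 and 38.3 RPKM in LD-SD, against 11, 17.1 and 22.8 RPKM in LD, and 20 of its 21 samples in LD-SD lay above all in LD. It was called in all 7 genotypes (0.80 ± 0.08, SE), while its partner GmCOL3b rose by 0.38 on average and was called in L74-441 alone.

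GmCOL1a and GmCOL1b of the same clade also rose, with smaller differences. GmCOL1a had 9.59, 20.8 and 29.7 RPKM in LD-SD, against 6.92, 9.43 and 17.8 RPKM in LD (log2 difference 0.95 ± 0.09, SE, adjusted p = 7.75e-11). It was called in 5 genotypes, at 1.68 in L74-441, and not in L65-3366 (0.65, adjusted p = 0.0534) or in L92-1195, where the means were 12.8 ± 4.23 RPKM in LD-SD and 11.9 ± 2.30 RPKM in LD (0.06, adjusted p = 0.916). The interaction gave adjusted p = 0.267, so that this difference between genotypes did not pass. GmCOL1b had 14.4, 24.5 and 57.2 RPKM in LD-SD, against 7.49, 11.3 and 19.3 RPKM in LD (1.10 ± 0.11, SE, adjusted p = 4.78e-10) and was called in 6 genotypes.

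GmCOL2a and GmCOL2b went the other way and were faint. GmCOL2a had 0, 0.121 and 0.309 RPKM in LD-SD, against 0.385, 1.23 and 2.39 RPKM in LD, which was a median of 1 read in LD-SD and 15 reads in LD. Every sample in LD-SD held 3 reads or fewer, so the level there was at the floor. Its log2 difference was -0.99 ± 0.06 (SE, adjusted p = 1.0e-15) and it was called in all 7 genotypes. GmCOL2b had 0, 0.283 and 1.19 RPKM in LD-SD, against 0.566, 1.76 and 3.44 RPKM in LD (-1.15 ± 0.08, SE, adjusted p = 1.49e-13). It was called in all 7 genotypes, and in 6 without library B of L74-441 in LD-SD (adjusted p = 0.0707 in L74-441).

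On the log2(RPKM + 1) scale, Clade II held the largest rise and the largest fall among the GmCOLs. The order of the falls depends on the pseudocount: by the ratio of the means GmCOL7a was 5.60-fold lower in LD-SD, GmCOL9b 6.46-fold and GmCOL2a, with at most 3 reads in every LD-SD sample, 10.7-fold. GmCOL5a had 10.1, 15.5 and 30.7 RPKM in LD-SD, against 0.465, 1.52 and 3.33 RPKM in LD, and its mean was 9.52-fold higher in LD-SD. Its log2 difference was 2.69 ± 0.11 (SE, adjusted p = 1.04e-19), and GmCOL5b followed at 1.48 ± 0.08, both in all 7 genotypes and with no overlap. GmCOL7a fell to 1.60, 5.43 and 12.5 RPKM in LD-SD, against 14.8, 30.2 and 45.3 RPKM in LD (-2.35 ± 0.15, SE, adjusted p = 1.12e-14), the 44th largest fall of the 60655 transcripts. GmCOL7b fell by 1.77 and was called in 6 genotypes, without L74-441 (-0.87, adjusted p = 0.243). GmCOL6a and GmCOL6b were the pair that moved in opposite directions. GmCOL6b had 12.9, 23.1 and 30.5 RPKM in LD-SD, against 6.08, 12.7 and 21.7 RPKM in LD (0.77 ± 0.10, SE, 3 genotypes). GmCOL6a had 8.28, 13.4 and 27.4 RPKM in LD-SD, against 10.9, 17.5 and 30.0 RPKM in LD (-0.39 ± 0.11, SE, adjusted p = 0.00422). GmCOL6a was called in none of the genotypes, and with 3 letter means against 3 it did not pass (adjusted p = 0.154).

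In Clade III the pairs GmCOL8 and GmCOL9 and both genes of the pair GmCOL13 fell in all 7 genotypes. GmCOL9b had 1.08, 2.01 and 3.39 RPKM in LD-SD, against 8.61, 13.7 and 18.4 RPKM in LD (-2.22 ± 0.09, SE, adjusted p = 2.11e-19). GmCOL13a had 2.53, 4.35 and 15.7 RPKM in LD-SD, against 17.5, 23.5 and 30.9 RPKM in LD (-2.19 ± 0.12, SE, adjusted p = 7.91e-17). GmCOL8a had 1.89, 3.58 and 5.34 RPKM in LD-SD, against 8.74, 15.1 and 17.5 RPKM in LD (-1.68 ± 0.09, SE, adjusted p = 1.07e-16). The ranges of these 3 genes and of GmCOL8b did not overlap between the photoperiods. GmCOL9a fell by 1.96, GmCOL8b by 1.52 and GmCOL13b by 0.84 on the log2 scale. GmCOL12a fell by 0.69 and GmCOL12b by 1.07 on average, with calls in 2 and 4 genotypes. GmCOL12a averaged 1.52 ± 0.38 RPKM in LD-SD and 6.64 ± 3.85 RPKM in LD in Glycine soja (SD, n = 3 each), where the difference was -1.50, while it was -0.15 in L92-1195. GmCOL11a fell by 0.60 in 5 genotypes, whereas GmCOL11b had 3.63, 6.13 and 9.71 RPKM in LD-SD, against 3.48, 5.63 and 9.16 RPKM in LD, with a difference of 0.09 ± 0.08 (SE, adjusted p = 0.383).

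**Figure D3:**
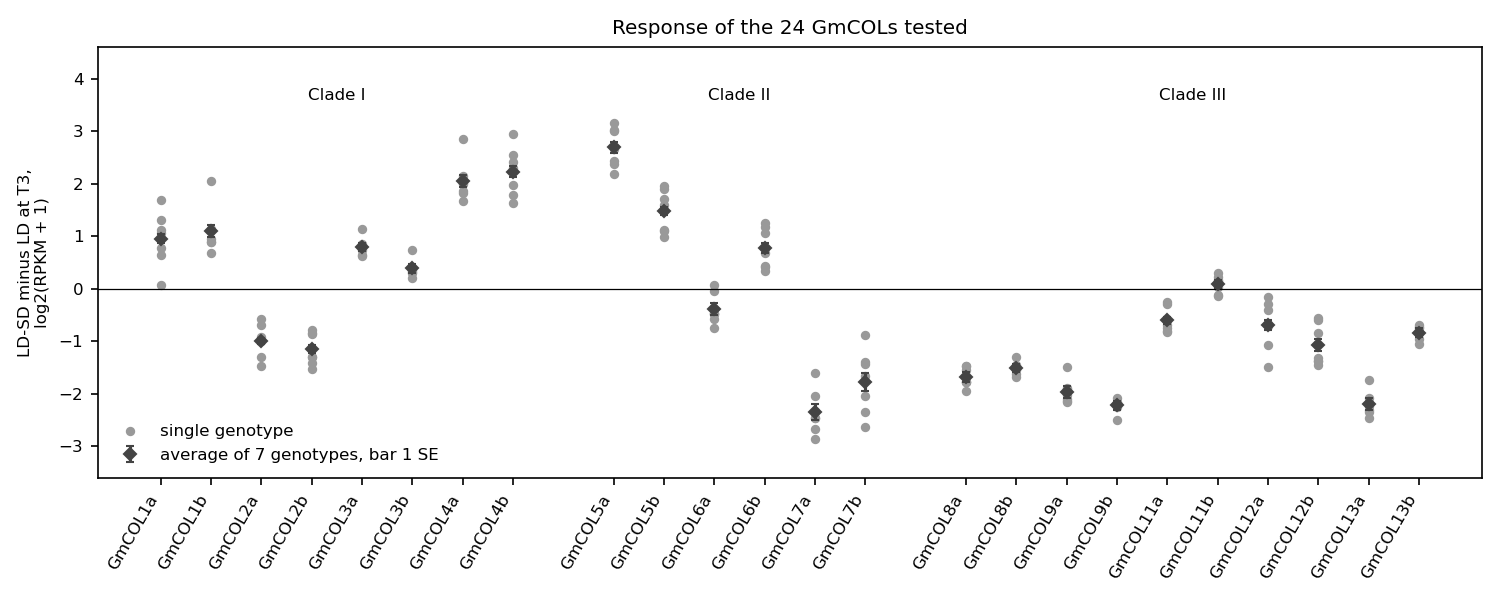
Difference LD-SD minus LD at T3 on the log2(RPKM + 1) scale (y axis) for the 24 GmCOLs tested, by clade (x axis); grey points are the 7 genotypes and diamonds their average with 1 SE. Points lie above 0 for most genes of Clade I and below 0 for Clade III except GmCOL11b, and GmCOL5a (2.69) and GmCOL7a (-2.35) in Clade II stand farthest from 0 in either direction.

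In Clades I and II the difference was most positive in L74-441 for 12 of 14 GmCOLs, and for 11 of 14 when its library B was left out. Of these genes, 2 in Clade I and 3 in Clade II fell on average. For them a more positive difference is a smaller fall or none, not a stronger response. The 14 genes were measured in the same samples and are not independent. Over all transcripts tested L74-441 was the most positive genotype for 12.4%, and among those that rose on average for 9.44%. No share was taken over those that fell. In Clade III this was so for 0 of 10. No interaction passed for these 14 genes (adjusted p of 0.267 or more). Across all transcripts, 47 differed among genotypes in the response at T3 (0.0775% of those tested). An unadjusted p below 0.05 was found for 3039 of the 60655 tested. That is about the share of 0.05 to be found if no transcript differed, so it points to no further transcripts. In 30 of the 47, Glycine soja was the genotype farthest from the median difference, in 10 it was Williams 82 and in 5 L74-441. Without Glycine soja 6 transcripts passed, without the library against its label 36, and limma-voom on the recovered reads gave 4. A fit of the whole series gave 229, and a replicate block within photoperiod 95. The number depended on the genotypes, the samples and the model of the fit, and no gene named here was among the 47.

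The response was also set against that at T1 (6:30, before the lights came on in both photoperiods) and at T5 (22:30, in darkness in LD-SD and in light in LD), which rest on other samples. Over T1, T3 and T5, 6 libraries of LD-SD or LD went against their label by the marker transcripts and were kept. Of 60821 transcripts tested, the response at T3 differed from that at T1 for 35808 (58.9%) and from that at T5 for 25660 (42.2%). Letter means were not taken for these comparisons, so their p values too may be too small. Of the 1379 transcripts higher in all 7 genotypes at T3, 541 (39.2%) were also higher at T1 on average and 481 (34.9%) were lower. At T5, 195 (14.1%) were higher and 663 (48.1%) were lower. Among all transcripts tested at T3, 31.8% were higher and 27.4% lower at T1, and 17.6% were higher and 14.3% lower at T5. Of the 713 lower in all 7 at T3, 228 (32.0%) were lower and 299 (41.9%) higher at T1, and 109 (15.3%) were lower and 253 (35.5%) higher at T5. In the same direction at all 3 time points were 29 of the 1379 and 37 of the 713. The share of such transcripts among all those tested was not taken, so whether these numbers are low cannot be said. The members of both sets were chosen at T3 alone, where their differences are large, so a smaller response at other times is in part a matter of that choice.

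GmFT5a and GmFT2a were among the genes that were higher in LD-SD at all 3 time points. The difference of GmFT5a was 3.10 before dawn at T1, 2.98 at T3 and 2.07 at T5. That of GmFT2a was 1.97, 2.42 and 1.58 in the same order. E1 was lower at T1 (-1.06) and T3 (-0.96), with -0.0043 at T5 (adjusted p = 0.972). GmCOL1a, GmCOL1b, GmCOL3a, GmCOL3b, GmCOL5a and GmCOL5b were higher at T1 and T3 and lower at T5. GmCOL1b, for example, differed by 2.21, 1.10 and -2.73 in this order. GmCOL4a had no call at T1 (-0.27, adjusted p = 0.106), rose at T3 (2.05) and fell at T5 (-0.61). GmCOL8a, GmCOL8b, GmCOL9a, GmCOL9b and GmCOL11a of Clade III fell at T3 and were lower at neither T1 nor T5. GmCOL9b differed by 0.10 (adjusted p = 0.452), -2.22 and 0.25 (adjusted p = 0.0687) at T1, T3 and T5. GmGIa differed far more at T1 (-4.46) than at T3 (0.26) or T5 (0.38). Glyma10g38910.1 fell at T1 (-1.70) and rose at T3 (6.18), with 0.37 at T5 (adjusted p = 0.360). Glyma19g27530.1 fell at T3 (-4.35) and rose at T5 (1.66), with 0.18 at T1 (adjusted p = 0.389).

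**Figure D4:**
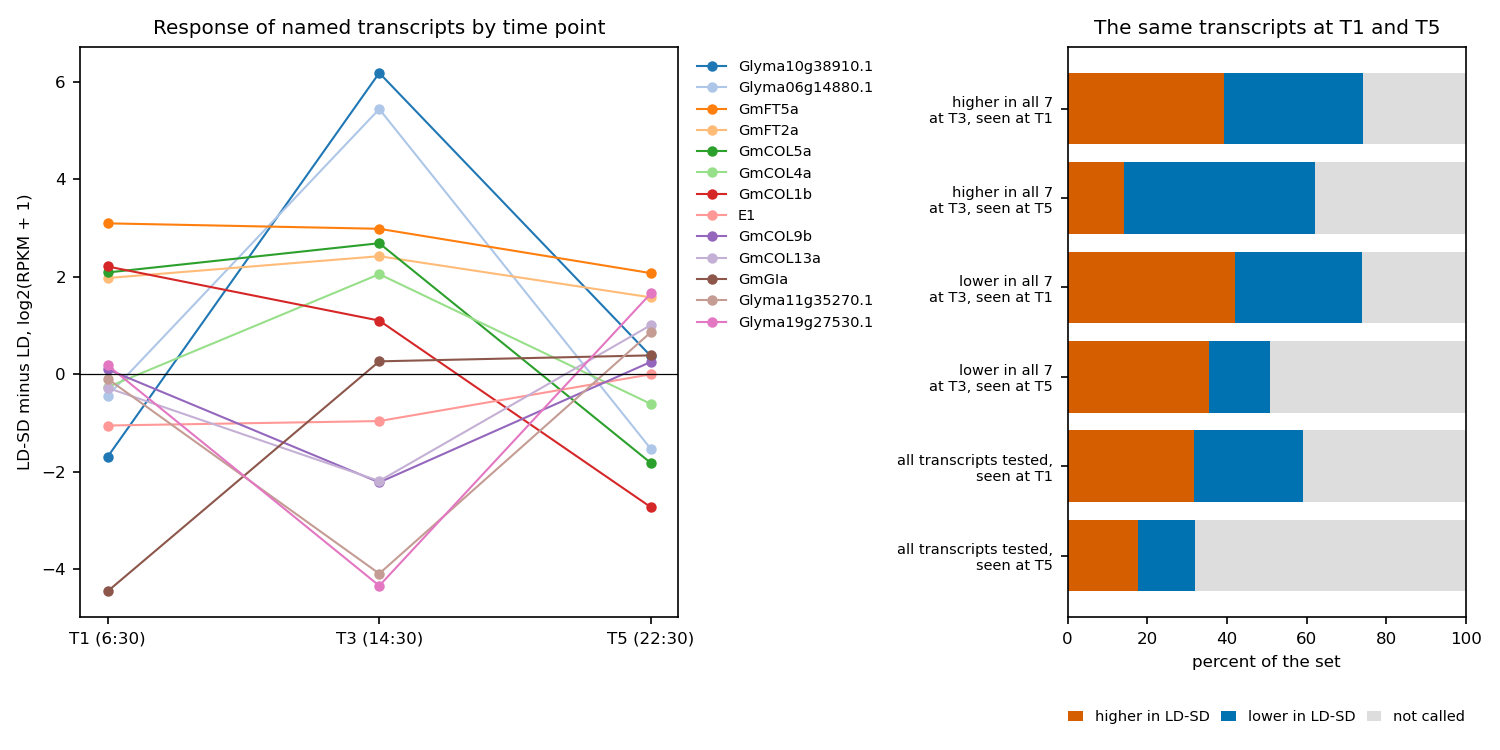
Left, difference LD-SD minus LD on the log2(RPKM + 1) scale (y axis) of 13 named transcripts at T1, T3 and T5 (x axis), averaged over 7 genotypes. Right, percent of the transcripts called at T3 in all 7 genotypes, and of all transcripts tested, that were higher, lower or not called at T1 and T5 (x axis); 48.1% of those higher in all 7 at T3 were lower at T5.

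To see how plants after 5 short days differed from plants kept in SD, LD-SD was compared with SD at T3. By the study's methods SD plants too were taken after 3 weeks, whereas the sample records give 26 days for both. A difference in age or stage of development thus cannot be told apart from the days spent in LD. Of 60958 transcripts tested, 20640 stood above SD in LD-SD (33.9%) and 11794 stood below (19.3%). With a median-of-ratios factor these numbers were 15338 and 15311, so that the balance of directions depends on the scaling. Letter means were not taken for this comparison, so its p values may be too small. The florigens were below the level of SD on average. GmFT2a averaged 7.06 RPKM in LD-SD and 34.3 RPKM in SD, or 20.6% of the SD mean, with a log2 difference of -2.47 ± 0.16 (SE, adjusted p = 1.78e-17). GmFT5a averaged 13.2 RPKM in LD-SD and 19.6 RPKM in SD (67.5%), with a difference of -0.82 ± 0.15 (SE, adjusted p = 9.32e-06). For GmFT2a the genotype means lay between 1.85 and 16.5 RPKM in LD-SD and between 30.2 and 39.6 RPKM in SD. For GmFT5a they lay between 4.29 and 27.0 RPKM in LD-SD and between 17.6 and 22.8 RPKM in SD, and in L92-1195 the mean in LD-SD was the higher one (27.0 ± 6.49 RPKM in LD-SD and 17.8 ± 2.11 RPKM in SD). E1 was at 0 reads in 11 of 21 samples in LD-SD, against 20 of 21 in SD, and its difference between LD-SD and SD did not pass (0.12 ± 0.05, SE, adjusted p = 0.0650). It passed with a pseudocount of 0.1 (0.68, adjusted p = 0.00253) and with a replicate block within photoperiod (adjusted p = 0.0463), while over all alternatives its adjusted p reached 0.228, and no sample of either held more than 3 reads.

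Among the 24 GmCOLs, 15 were higher in LD-SD than in SD and 2 were lower (against 33.9% and 19.3% of all transcripts). The other 7 did not pass. With a median-of-ratios factor GmCOL2b, GmCOL5a, GmCOL5b and GmCOL7a, which had been higher, did not pass (adjusted p of 0.0634 to 0.150). GmCOL4a averaged 143 RPKM in LD-SD and 137 RPKM in SD (difference 0.04 ± 0.10, SE, adjusted p = 0.786, and -0.06 with a median-of-ratios factor), and its partner GmCOL4b 99.4 RPKM in LD-SD and 127 RPKM in SD (-0.37, adjusted p = 0.000458). GmCOL6b stood above SD, with 22.9 RPKM in LD-SD and 10.7 RPKM in SD (1.03 ± 0.09, SE, adjusted p = 2.17e-13). GmCOL13a, which fell after the shift, averaged 4.87 RPKM in LD-SD and 2.15 RPKM in SD (0.83 ± 0.11, SE). The 2 transcripts with the largest rises were above SD, Glyma10g38910.1 with means of 603 RPKM in LD-SD and 134 RPKM in SD (2.19 ± 0.16, SE) and Glyma06g14880.1 with 69.5 RPKM in LD-SD and 18.6 RPKM in SD (1.87 ± 0.13, SE). Glyma19g27530.1 (28.9 RPKM in LD-SD and 16.2 RPKM in SD) and Glyma11g35270.1 (1.78 and 1.17 RPKM) were also slightly higher in LD-SD than in SD, with differences of 0.74 and 0.35. The comparisons of LD-SD with LD and with SD share the LD-SD samples and are not independent.

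**Figure D5:**
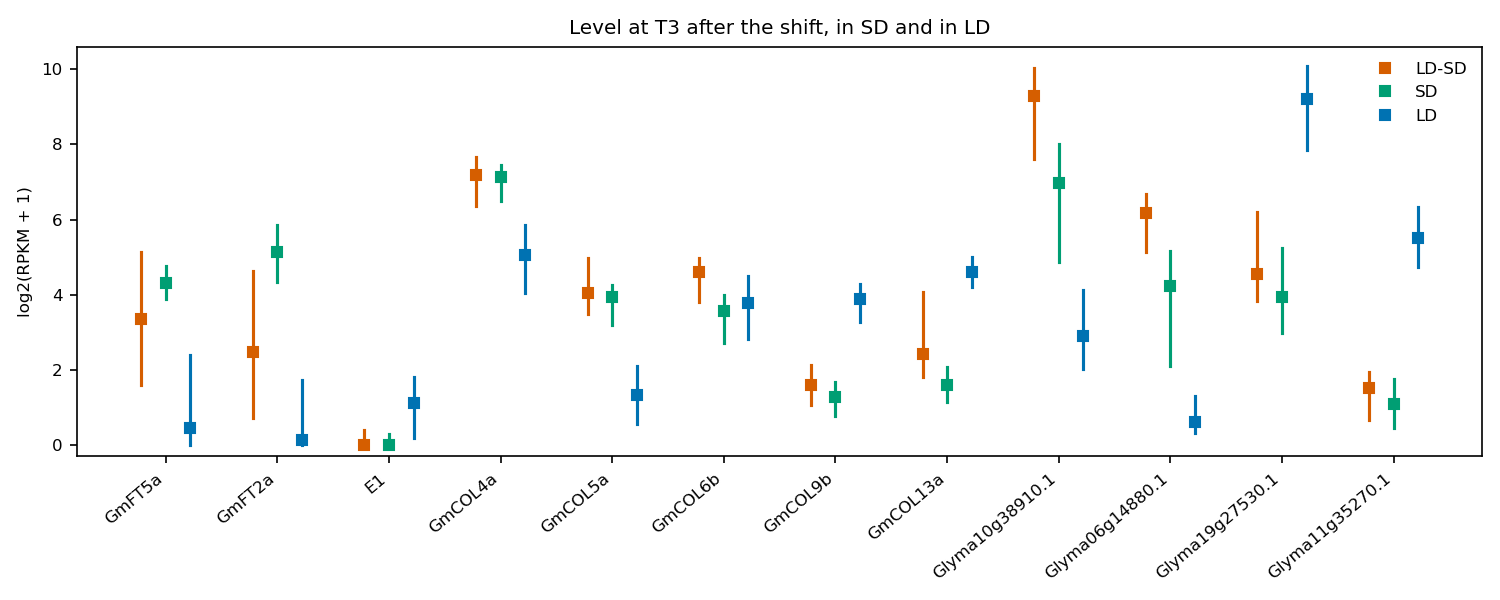
Level at T3 of 12 named transcripts (x axis) on the log2(RPKM + 1) scale (y axis) in LD-SD, SD and LD; squares are medians and lines run from the lowest to the highest of 21 samples. GmFT2a in LD-SD (median 4.54 RPKM) lies between SD (34.1 RPKM) and LD (0.0956 RPKM), while Glyma10g38910.1 in LD-SD (627 RPKM) lies above SD (124 RPKM) and LD (6.51 RPKM).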

How the data were processed

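RNA of 42 samples at T3 (LD-SD and LD, 7 genotypes, 3 biological replicates per the labels) was compared. After quality checks (FastX, FastQC) the authors aligned reads to Williams 82 transcripts with Bowtie, counted them with a program of their own and deposited RPKM, 1 column per library with replicates kept apart. The Bowtie version and the rule for reads that fit several transcripts are not given in the sources used here. Of 73320 transcripts, 1 with infinite values in all samples was dropped. Whole reads were recovered from the RPKM values (100.0% of values within 0.02 read of a whole number) and used for depth, the floor of 3 reads and an added limma-voom fit, and floors cover counting error only.

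The tests used limma 3.58.1 (R 4.3.3) on log2(RPKM + 1), with eBayes and trend and with a coefficient for each group of genotype and photoperiod. Transcripts entered if their mean over the fitted samples reached 0.1 RPKM, and calls are Benjamini-Hochberg adjusted p below 0.05. The fit of LD-SD minus LD held 42 samples with 28 residual degrees of freedom. The responses at T1, T3 and T5 were fitted on all LD-SD and LD samples, and LD-SD minus SD on the 63 samples at T3. For each named gene the 7 genotype differences were also tested with an exact two-sided sign-flip test, whose smallest p is 0.0156. It gave this smallest p for all tested genes named here but GmCOL6a (0.0469), GmGIa (0.0312) and GmCOL11b (0.219). For the transcripts picked because they were called in all 7 genotypes, this p was fixed by that choice and is no support. Replicate pairs differed beyond sampling of reads (chi-square per degree of freedom at least 2.09 over 42 pairs), so no library was treated as a duplicate deposit.

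The named genes are those with a locus in the paper, with the transcript given there or, failing that, the first or the highest one, and, among those called in all 7 genotypes, the 2 transcripts that rose most and the 2 that fell most. The gene table at hand matched 0 of the file's loci, so planned lists of clock, chlorophyll-binding and histone genes were not used, no leaf markers were looked up and no sequence is printed. The comparison, the genes and the lists were chosen with earlier results of these data known. Alternatives were the pseudocount, the filter, the scaling, the replicate block, left-out replicates, libraries and genotypes, the sum of transcripts of a locus, eBayes without trend, letter means, genotype pairs, a stricter threshold and a fit of the whole series. Those added after seeing the data were limma-voom and leaving out libraries of doubtful label. The fit of LD-SD minus LD was checked first on simulated reads, drawn independently for each library. They held no effect of replicate letters, so this check does not cover samples that deviate together. Figures used Python 3.11.15 with matplotlib 3.10.9.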

Additional observations from a re-analysis of the deposited data

Results flagged for a closer look

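The genes below had a response to the shift (LD-SD minus LD) that differed between time points. The libraries that went against their label at T1, T3 and T5 were kept in this fit. Values are the response at T3 minus that at T1 or at T5 on the log2(RPKM + 1) scale, averaged over 7 genotypes, from limma on all LD-SD and LD samples with an adjusted p below 0.05. Over all transcripts, 35808 differed between T3 and T1 and 25660 between T3 and T5, so that a difference between times was common, and none of the causes was tested.

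In Clade I, T3 minus T1 was -1.04 for GmCOL1a, -1.11 for GmCOL1b, -0.86 for GmCOL2a, -0.61 for GmCOL2b, -0.73 for GmCOL3b, 2.32 for GmCOL4a and 2.52 for GmCOL4b. T3 minus T5 was 3.39 for GmCOL1a, 3.83 for GmCOL1b, -1.02 for GmCOL2a, -1.49 for GmCOL2b, 1.79 for GmCOL3a, 1.24 for GmCOL3b, 2.66 for GmCOL4a and 2.67 for GmCOL4b. In Clade II, T3 minus T1 was 0.60 for GmCOL5a, -1.23 for GmCOL6a, -0.37 for GmCOL6b, -3.09 for GmCOL7a and -2.47 for GmCOL7b. T3 minus T5 was 4.51 for GmCOL5a, 2.66 for GmCOL5b, 0.86 for GmCOL6b, -2.89 for GmCOL7a and -1.80 for GmCOL7b. The T3 minus T1 difference of GmCOL5a did not pass without replicate B (0.49, adjusted p = 0.128). That of GmCOL6b did not pass with a median-of-ratios factor (-0.29, adjusted p = 0.0663). Nor did it pass without replicate C (-0.30, adjusted p = 0.167) or without Glycine soja (-0.18, adjusted p = 0.274).

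In Clade III, T3 minus T1 was -1.92 for GmCOL8a, -1.93 for GmCOL8b, -2.43 for GmCOL9a, -2.32 for GmCOL9b, -0.97 for GmCOL11a, 0.33 for GmCOL11b, -0.69 for GmCOL12a, -0.93 for GmCOL12b and -1.91 for GmCOL13a. T3 minus T5 was -2.12 for GmCOL8a, -1.65 for GmCOL8b, -1.88 for GmCOL9a, -2.47 for GmCOL9b, -0.95 for GmCOL11a, -0.57 for GmCOL12b, -3.20 for GmCOL13a and -1.15 for GmCOL13b. The T3 minus T5 difference of GmCOL12b did not pass without replicate A (-0.32, adjusted p = 0.153).

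Among the other genes, T3 minus T1 was 4.72 for GmGIa, -1.13 for GmPHYA3, -0.52 for GmPHYA2, 7.88 for Glyma10g38910.1, 5.89 for Glyma06g14880.1, -4.53 for Glyma19g27530.1 and -4.00 for Glyma11g35270.1. T3 minus T5 was 0.85 for GmFT2a, 0.91 for GmFT5a, -0.96 for E1, 0.28 for GmPHYA2, 5.82 for Glyma10g38910.1, 6.98 for Glyma06g14880.1, -6.00 for Glyma19g27530.1 and -4.96 for Glyma11g35270.1. The transcripts named by a Glyma number were picked for their large differences at T3. Their gaps from T1 and T5 are thus in part a matter of that choice and no independent evidence. Without replicate A the difference between T3 and T5 did not pass for GmPHYA2 (0.0322, adjusted p = 0.842) and GmFT2a (0.50, adjusted p = 0.125), and without replicate B not for GmFT5a (0.68, adjusted p = 0.0554). Between genotypes, 47 transcripts differed in the response at T3.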

How the results depend on the processing

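Of 3457 recomputed values of named genes, 3386 kept their direction and their side of the threshold, 40 lost and 11 gained the call, and 20 changed sign, none of them past the threshold. Every LD-SD minus LD difference at T3 kept its direction. Among the called ones, only GmCOL6a, GmPHYA3 and GmPHYA2 lost the call, with 3 letter means against 3 (adjusted p = 0.154, 0.151 and 0.159) and without replicate letters (up to 0.0945, 0.189 and 0.250). The cause of the changes below was not tested, beyond that letter means, fewer samples and stricter thresholds leave less to call.

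With 3 letter means against 3, 8026 transcripts rose and 11063 fell on average, and with a log2 difference of at least 1, 1866 and 1103. Higher in all genotypes were 631 to 1409 transcripts without a replicate letter or a single library, and 894 at adjusted p below 0.01. Lower in all were 159 to 843 without a letter or a library, 318 at adjusted p below 0.01, and 1156 without Glycine soja. The interaction with genotype gave 6 to 39 transcripts without a letter, 24 with a pseudocount of 0.1, 30 at a minimum mean of 1 RPKM, 6 without Glycine soja, 229 in the fit of the whole series and 4 with limma-voom.

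Replicate letters did not pair LD-SD with LD samples of a genotype (mean r -0.05, 4 of 21 over 0.1). With a replicate block shared by both photoperiods 12832 transcripts rose and 19396 fell on average. With a block within each photoperiod 1077 were lower in all genotypes and 95 had an interaction.

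Signs changed for small differences. T3 minus T1 of GmCOL3a was 0.0644 with a median-of-ratios factor, 0.00524 with quantile normalization, 0.00519 without Glycine soja, and -0.0923 to 0.0822 without a replicate letter. It was 0.25 for GmCOL5b with a pseudocount of 0.1 and 0.00889 with transcripts of a locus summed, 0.00582 for GmFT5a without Glycine soja, and -0.0126 to 0.150 for E1 without a letter. T3 minus T5 was 0.0574 for GmGIa with the shared block and 0.13 without libraries of doubtful label. Without a letter it was -0.42 to 0.0362 for GmCOL6a and -0.30 to 0.12 for GmCOL12a. LD-SD minus SD was -0.00079 for GmCOL1b and -0.0554 for GmCOL4a with a median-of-ratios factor. It was 0.0506 for GmCOL11a with transcripts summed and 0.0040 without the library against its label. Without a letter it was -0.0536 to 0.12 for GmCOL4a, -0.0611 to 0.0335 for GmCOL11a and -0.17 to 0.17 for GmCOL12a. 

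Values at or under 3 reads (E1 and GmCOL2a in LD-SD, GmFT2a in most LD samples) limit those differences, and calls in a single genotype rest on 3 samples against 3.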
